A study of Rattus norvegicus with 18 samples.

Results

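The comparison described here is between rats kindled to generalised seizures and their own shams, in 8 of the 18 hippocampal RNA libraries of a study of 2 rat models of acquired epilepsy. Members were chosen by sample title alone: the 4 libraries titled 3 Class V in the kindling arm (kindled 1 to 4 below) and the 4 libraries titled sham in that arm (sham 1 to 4). All animals were adult male Sprague-Dawley rats with no stated genetic alteration, and the tissue was the left hippocampus, frozen 24 hours after the last seizure. Kindled rats carried hippocampal electrodes and were stimulated electrically each day until fully kindled; the labels call the controls sham and do not say whether they carried electrodes or when they were sampled. Class V is the last stage of the Racine scale of motor seizures, and the labels do not say what the 3 in the title counts. The other 10 libraries, 7 sham and 3 Class V rats of the kainic acid arm, enter only where the kindling change is set against the kainic acid change. Nothing in the labels states that every library is a separate animal, so p-values measure the spread between these libraries, which may be partly technical.

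Kindling is the gradual growth of seizures under repeated weak stimulation of a limbic site, until each stimulus ends in a generalised convulsion. Unlike status epilepticus after kainic acid, it reaches a lasting seizure-prone state with comparatively little cell death. In the hippocampus it is classically linked to granule cell neuropeptides, neurotrophins, altered channels and receptors, and remodelling of the extracellular matrix, while microglia, the resident macrophages, respond through receptors such as Trem2 and its adaptor Tyrobp, complement C1q and the major histocompatibility complex.

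Total counts per library ran from 30925368 to 38850420 in the shams and from 36117956 to 41195373 in the kindled group. The shams differed far more among themselves than the kindled libraries did: the mean correlation of log2 CPM (a gene's count relative to the scaled total of its library, with scaling factors from these 8 libraries) with the rest of the own group was 0.947 to 0.974 for shams and 0.991 to 0.994 for kindled rats. Signals of blood, immune, and choroid plexus or fibroblast genes were each highest in 1 sham, and their cell source was not tested. Sham 1 held the most haemoglobin, with Hbb at 1932 CPM against 230.2 to 646.5 CPM in the other 7 libraries. In sham 3 the summed level of 16 T, B and myeloid markers was 262.0 CPM, against 116.5 CPM in sham 4 and 32.1 to 60.7 CPM elsewhere. The summed interferon response was 1251 CPM in sham 3 against 203.2 to 366.5 CPM in the other libraries. In sham 4 the choroid plexus list summed to 1408 CPM against 113.7 to 189.7 CPM elsewhere, led by Ttr at 853.1 CPM, and Col1a2, a fibroblast collagen, reached 225.5 CPM against 30.4 to 69.2 CPM. Genes of ribosomal RNA repeats took 16.4% of reads in sham 2 and 16.3% in kindled 1, and 0.661% to 1% in the rest. Hippocampal identity was present throughout, with the granule cell factor Prox1 at 7.16 to 48.6 CPM, the granule cell gene C1ql2 at 24.1 to 132.7 CPM and the pyramidal cell gene Wfs1 at 168.8 to 441.9 CPM.

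**Figure D1:**
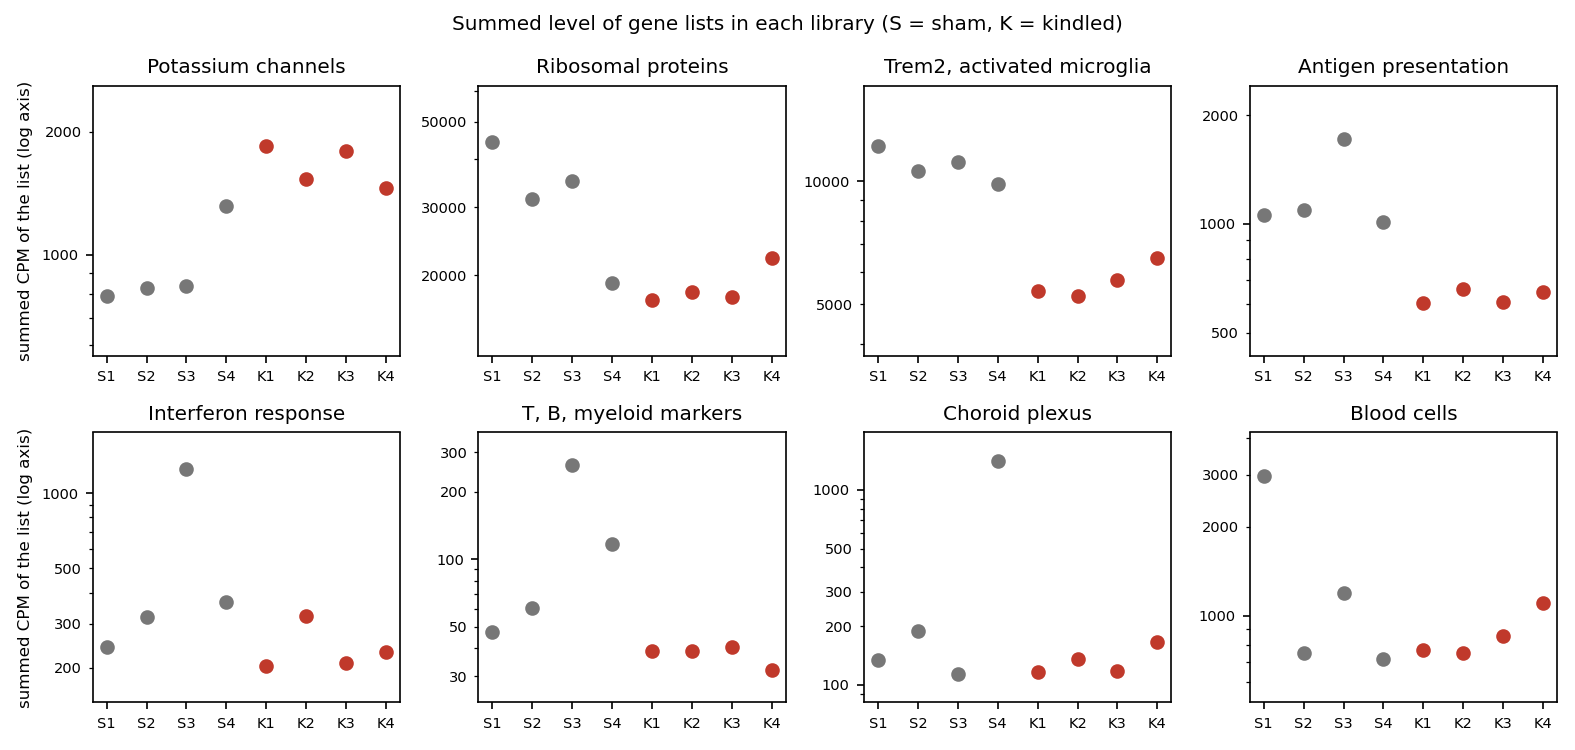
Summed CPM (log axis) of 8 gene lists in each library, with shams S1 to S4 in grey and kindled K1 to K4 in red; sums are led by their most abundant genes. The interferon and T, B and myeloid sums are highest in sham 3 (1251 and 262.0 CPM), choroid plexus in sham 4 (1408 CPM) and blood in sham 1, while antigen presentation is lower in all 4 kindled libraries than in any sham.

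Of 12965 genes tested across the 8 libraries with edgeR's quasi-likelihood test, 382 rose (2.95%) and 377 fell (2.91%) in kindled hippocampus at an adjusted p under 0.05, which is what "called" means below; the median log2 fold change of all genes was -0.02. With sham 3 and 4 left out, 4458 of 13056 genes were called (34.1%), 2075 higher (15.9%) and 2383 lower (18.3%), among them 376 of the genes that rose and 357 of those that fell with all shams. The calls depended on single libraries. By edgeR 0 genes were called without kindled 1 (1204 higher and 1360 lower at an unadjusted p under 0.05) and 0 without kindled 2 (1640 and 1411). There was 1 call (Mmp9) without kindled 3, 157 without kindled 4, 83 without sham 2 and 121 without sham 3, but 1985 without sham 1 (15.2%, with 7.41% higher and 7.8% lower) and 4493 without sham 4. No gene was thus called in all 8 of these fits. For Mmp9, called in 6 of them, the edgeR adjusted p ran from 0.00157 to 0.0518, and for Trh and Tyrobp, called in 5, it ran up to 0.0952. Nearly all called genes separated the groups completely, 381 of the 382 that rose and 372 of the 377 that fell. Over all genes tested, every kindled library lay above every sham for 14.3% and below for 7.23%. Counts of called list members below stand against 2.95% of all genes higher and 2.91% lower, or 15.9% and 18.3% without sham 3 and 4. In a short list 0 or 1 call with all shams is near those shares. The split of calls between higher and lower depended on scaling: with upper quartile factors it was 171 higher and 492 lower, against 382 and 377.

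The smallest p of all genes, and the largest called rise among genes above a mean log2 CPM of 1, was that of Mmp9, the matrix metalloproteinase that cleaves synaptic and perineuronal substrates. Its level was 3.09, 6.45, 4.44 and 5.23 CPM in sham 1 to 4 and 44.2, 38.7, 43.2 and 28.2 CPM in kindled 1 to 4. All 4 kindled libraries were far above the highest sham, with a log2 fold change of 3.00 ± 0.25 (SE, n = 4 and 4; edgeR adjusted p = 0.00672) and 3.01 without sham 3 and 4 (edgeR adjusted p = 0.00782). Of 21 matrix proteases and inhibitors tested, 3 rose and 1 fell, against 2.95% and 2.91% of all genes. Mmp3, which can activate pro-Mmp9, was near the detection limit in shams at 0.0310 to 0.192 CPM and lay at 0.368 to 1.32 CPM in kindled rats, so its log2 fold change of 2.85 ± 0.60 rests on few reads, and it was 3.54 without sham 3 (edgeR adjusted p = 0.0357, and 0.0557 without sham 3). Mmp16, a membrane-bound metalloproteinase, rose by 0.80 ± 0.18. Mmp2, which fibroblasts and vessels also make, fell to a log2 fold change of -1.01 ± 0.25 and was highest in sham 4, the library with most fibroblast collagen (34.2 CPM, against 14.4 to 19.9 CPM in the other shams and 10.05 to 11.95 CPM in kindled rats). The median of the whole list was -0.11, with 9 of 21 positive. Larger called rises than that of Mmp9 were seen at low levels in Cplx4, a complexin of transmitter release (0.101, 0.341, 0.0720 and 0.113 CPM in shams, 2.08, 1.59, 1.95 and 1.08 CPM in kindled rats, log2 fold change 3.43), and Sprr1a, a small proline-rich protein (3.07), both named after their values were seen.

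Trh, the thyrotropin-releasing hormone precursor that granule cells make after seizures, rose next. It was at 2.39, 2.91, 4.42 and 3.13 CPM in sham 1 to 4 and 15.7, 22.8, 17.1 and 38.8 CPM in kindled 1 to 4. Every kindled library stood well above every sham, and kindled 4, lowest for Mmp9, was highest for Trh. The log2 fold change was 2.87 ± 0.33 (edgeR adjusted p = 0.0132) and 3.15 without sham 3 and 4. Npy, neuropeptide Y, an inhibitory peptide of interneurons that granule cells also make after seizures, was at 187.4, 97.6, 140.0 and 56.5 CPM in shams and 278.6, 315.4, 305.0 and 319.2 CPM in kindled rats. The groups did not overlap, and the shams spread much more widely than the kindled libraries; the log2 fold change was 1.34 ± 0.31 (edgeR adjusted p = 0.0441). Tac3, a tachykinin precursor named after its values were seen, was tight in both groups, at 29.1 to 38.2 CPM in shams and 70.9 to 75.1 CPM in kindled rats, a log2 fold change of 1.13 ± 0.11 (edgeR adjusted p = 0.0132). Of 19 neuropeptides and granins tested, these 2 list members, Trh and Npy, rose and 0 fell, with a list median of 0.13. Without sham 3 and 4 there were 2 called higher and 5 lower, against 15.9% and 18.3% of all genes in that fit. The list median was then -0.06, with 9 positive and 10 negative. Sst, somatostatin (85.6 to 276.5 CPM in shams, 215.2 to 249.1 CPM in kindled rats), and Vgf, a neurotrophin-induced secretory protein (log2 fold change 0.65 ± 0.21, edgeR adjusted p = 0.0864), did not pass.

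**Figure D2:**
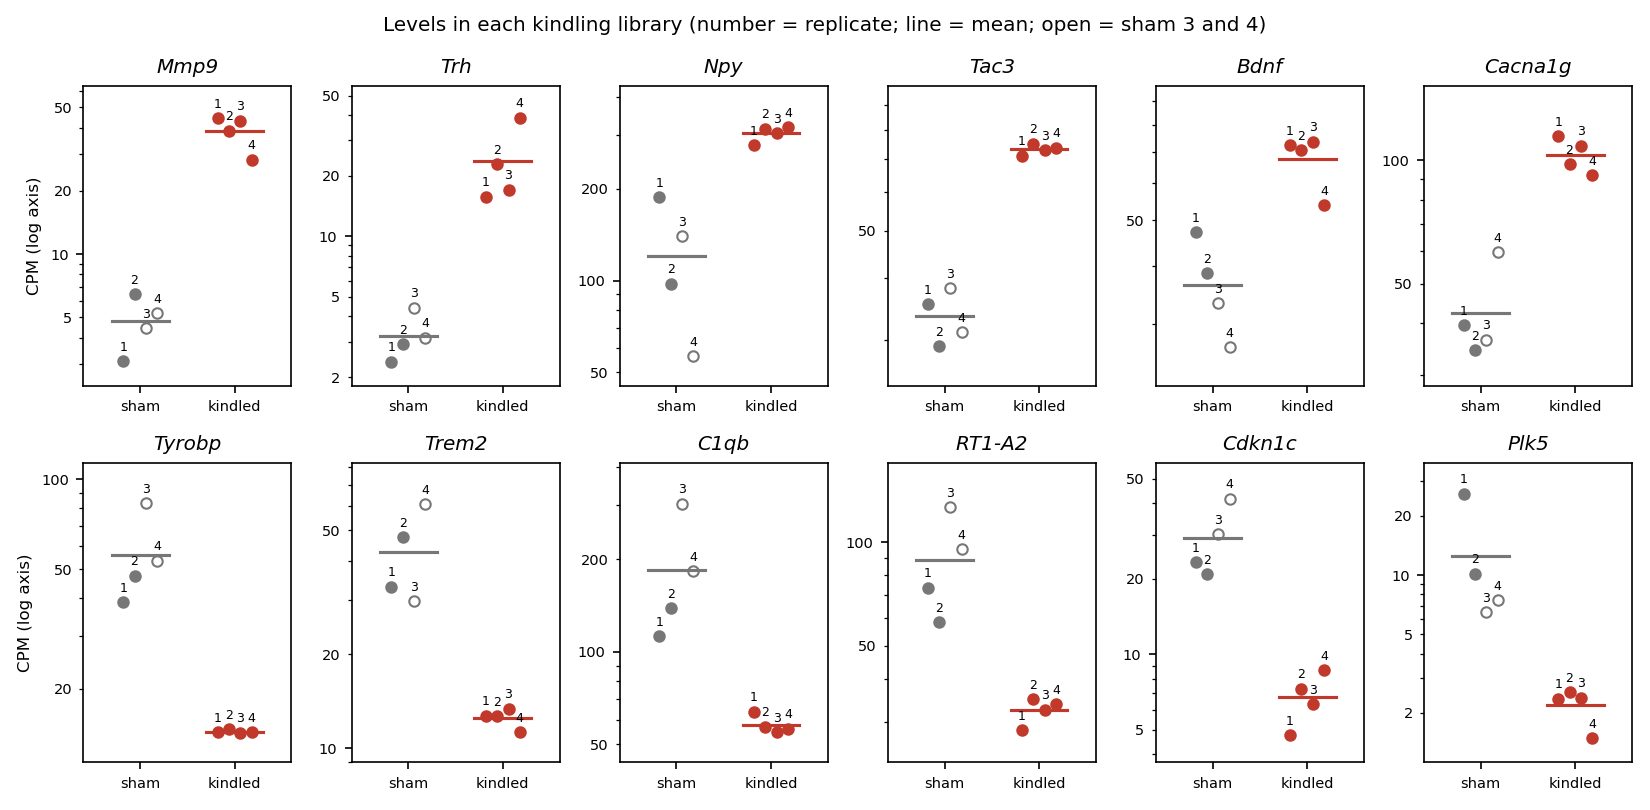
CPM (log axis) of 12 genes in the 4 sham (grey) and 4 kindled (red) libraries, numbered by replicate, with the mean as a line and sham 3 and 4 as open circles. Mmp9, Trh, Npy, Tac3, Bdnf and Cacna1g are higher in every kindled library, Tyrobp, Trem2, C1qb, RT1-A2, Cdkn1c and Plk5 are lower in every one, and the kindled libraries lie closer together than the shams for Npy, Tyrobp and C1qb.

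Growth factors moved both ways. Bdnf, the brain-derived neurotrophic factor, was at 47.2, 38.6, 33.3 and 26.8 CPM in shams and 72.4, 70.5, 73.6 and 53.9 CPM in kindled rats. It rose in every kindled library, by a log2 fold change of 0.89 ± 0.18 (edgeR adjusted p = 0.0352). Ntrk3, the receptor of neurotrophin 3, rose by 0.78 ± 0.16, while its ligand Ntf3 fell: 13.2, 7.99, 5.47 and 6.92 CPM in shams against 2.85, 2.71, 3.05 and 3.53 CPM in kindled rats. All kindled libraries held less Ntf3 than any sham, with a log2 fold change of -1.47 ± 0.27 (edgeR adjusted p = 0.0282). The receptor Ntrk2, at 584.0 to 649.4 CPM in shams and 766.5 to 859.3 CPM in kindled rats, did not pass (log2 fold change 0.36 ± 0.10, edgeR adjusted p = 0.0649). In all, 2 of 8 neurotrophin genes tested rose and 1 fell, against 2.95% and 2.91% of all genes.

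In activin and TGF-beta signalling 2 of 19 genes rose and 1 fell (against 2.95% and 2.91% of all genes), with a median of 0.25. Acvr1c, the type I receptor ALK7, was at 0.235, 2.08, 2.64 and 4.14 CPM in shams and 13.4, 11.7, 14.4 and 10.7 CPM in kindled rats, a log2 fold change of 2.45 ± 0.58 (edgeR adjusted p = 0.0451) that was 2.06 without sham 1, the lowest by far. The signal transducer Smad3 rose by 0.72 ± 0.15. Tgfb1, the ligand made largely by microglia in brain, was at 25.4, 30.7, 35.2 and 41.6 CPM in shams and 17.03, 14.79, 14.9 and 15.7 CPM in kindled rats. It fell in every kindled library, by a log2 fold change of -1.09 ± 0.16 (edgeR adjusted p = 0.0175). Inhba, the activin A subunit that seizures classically induce, had a log2 fold change of 0.93 ± 0.25 and did not pass (edgeR adjusted p = 0.0544).

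Voltage-gated channel genes lay higher in kindled hippocampus as whole families. Of all 12965 genes tested, 6255 had a positive log2 fold change. All 21 potassium channel genes tested had a positive log2 fold change, with a median of 0.80, and 5 of them were called against 2.95% of all genes. Kcnq3, a subunit of the M-current that damps repetitive firing, was at 23.2, 37.0, 53.9 and 91.6 CPM in shams and 157.3, 135.4, 148.3 and 132.6 CPM in kindled rats. Its shams spread widely below a tight kindled group, and it rose by 1.48 ± 0.36 (edgeR adjusted p = 0.0470). The A-type channel genes Kcnd2 (0.81 ± 0.20) and Kcnd3 (0.80 ± 0.19), the fast delayed rectifier Kcnc2 (0.62 ± 0.14) and Kcnh1 (1.01 ± 0.21) rose too. Of 14 calcium channel genes, 13 were positive and 5 rose, with a median of 0.87. Cacna1g, the T-type pore that supports burst firing, was at 39.6, 34.4, 36.5 and 59.6 CPM in shams and 114.3, 97.7, 108.4 and 92.0 CPM in kindled rats. Even sham 4, the highest sham, stayed well below the lowest kindled library, and the log2 fold change was 1.28 ± 0.18 (edgeR adjusted p = 0.0174). Cacna2d1, the subunit that gabapentin binds, rose by 1.20 ± 0.20 (edgeR adjusted p = 0.0233), and the N-type pore Cacna1b, the T-type pore Cacna1h and the beta subunit Cacnb2 rose by 1.11, 0.81 and 0.71. Of 12 sodium and HCN channel genes 3 rose, among them the embryonic-type sodium channel Scn3a by 1.03 ± 0.23 and the leak channel Nalcn by 0.90 ± 0.20.

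Transmitter receptor and release genes also had mostly positive log2 fold changes, against 6255 positive of all 12965 genes tested. Of 14 GABA receptor genes 12 were positive and 2 negative, and 2 rose and 0 fell. Without sham 3 and 4 there were 6 called higher and 1 lower, against 15.9% and 18.3% of all genes in that fit. Those that rose with all shams included Gabra2, a synaptic alpha subunit (40.1, 80.3, 84.5 and 98.3 CPM in shams, 182.5, 169.7, 172.5 and 143.4 CPM in kindled rats, log2 fold change 1.14 ± 0.24, edgeR adjusted p = 0.0381). Every kindled library was above every sham for Gabra2. Gria3, an AMPA receptor subunit, was at 140.0, 108.8, 102.1 and 149.4 CPM in shams and 268.0, 274.5, 276.7 and 206.4 CPM in kindled rats, a rise of 1.04 ± 0.16 (edgeR adjusted p = 0.0206), and was the only AMPA or kainate receptor gene of 9 called. The metabotropic receptor Grm7 rose by 1.04 ± 0.26, while Grin2a, an NMDA receptor subunit with a log2 fold change of 1.76 ± 0.59, was not called, and in it sham 4 reached 105.3 CPM against 10.3 to 30.5 CPM in the other shams. Of 21 monoamine and acetylcholine receptor genes 20 were positive and 3 rose: Drd5, a dopamine D1-class receptor (0.437, 1.77, 1.56 and 1.55 CPM in shams, 7.48, 4.98, 7.93 and 5.68 CPM in kindled rats, log2 fold change 2.28 ± 0.38, edgeR adjusted p = 0.0224), the serotonin receptor Htr2a (1.96 ± 0.46) and the muscarinic receptor Chrm1 (0.78 ± 0.16). All kindled levels of Drd5 were above the highest sham. Of 18 vesicle release genes all had a positive log2 fold change, with a median of 0.74, and 5 rose, among them the active zone scaffolds Pclo (1.38 ± 0.25) and Bsn (1.0 ± 0.19), Sv2b (0.95 ± 0.17) and Syn1 (0.72 ± 0.14). The fusion proteins Snap25 (log2 fold change 0.43 ± 0.12, edgeR adjusted p = 0.0577) and Vamp2 (0.07 ± 0.16) did not pass. Without sham 3 and 4, 16 of the 18 vesicle release genes were positive and 2 negative, and 9 were called higher. In that fit 18 of 21 monoamine and acetylcholine receptor genes were positive and 11 called higher. Of the 9 AMPA and kainate receptor genes, 7 were positive and 3 called higher, with the median going from 0.52 to 0.34.

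These neuronal families moved together with a library-wide gradient. A score of the 77 ribosomal protein genes tested was 0.88, 0.36, 0.54 and -0.33 in sham 1 to 4 and -0.48, -0.41, -0.44 and -0.11 in kindled 1 to 4, so that only sham 4 fell among the kindled libraries. With that score as a covariate the medians of the potassium, calcium, and sodium and HCN channel lists were 0.26, 0.39 and 0.31, and 0 of their genes were called by edgeR, with 4, 5 and 2 higher and 0, 1 and 1 lower at an unadjusted p under 0.05; in that fit 186 genes were called (1.43% of those tested), 21 higher (0.162%) and 165 lower (1.27%). What part the gradient has in the channel changes was not tested further. Genes that stayed called with the covariate included Mmp9, Trh, Npy and Tac3 and also Ephb6, an Eph receptor (61.4, 67.1, 55.9 and 84.3 CPM in shams, 162.7, 136.5, 165.8 and 160.7 CPM in kindled rats), Serinc2 (16.2 to 19.6 against 29.8 to 31.97 CPM), Oprl1, the nociceptin receptor (11.2 to 15.97 against 24.98 to 28.6 CPM), and Epha7 (56.4 to 83.1 against 107.4 to 132.8 CPM). These last 4 genes were named after their values were seen, and none of their groups overlapped.

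The 12 largest called rises among genes above a mean log2 CPM of 1 ran from 1.48 to 3.00 and were Mmp9, Trh, Acvr1c, Drd5, Htr2a, Fras1, Pcdhga1, Scn4a, Zdhhc23, Tenm4, St8sia3 and Kcnq3. Fras1, a basement membrane protein, was at 2.45, 4.71, 7.06 and 11.7 CPM in shams and 22.9, 22.9, 21.1 and 19.8 CPM in kindled rats. Scn4a, the sodium channel best known from muscle, was at 1.65 to 3.79 CPM in shams and 6.60 to 8.51 CPM in kindled rats. Zdhhc23, a palmitoyltransferase, Tenm4, a teneurin adhesion protein, and St8sia3, a sialyltransferase, each rose by 1.53.

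**Figure D3:**
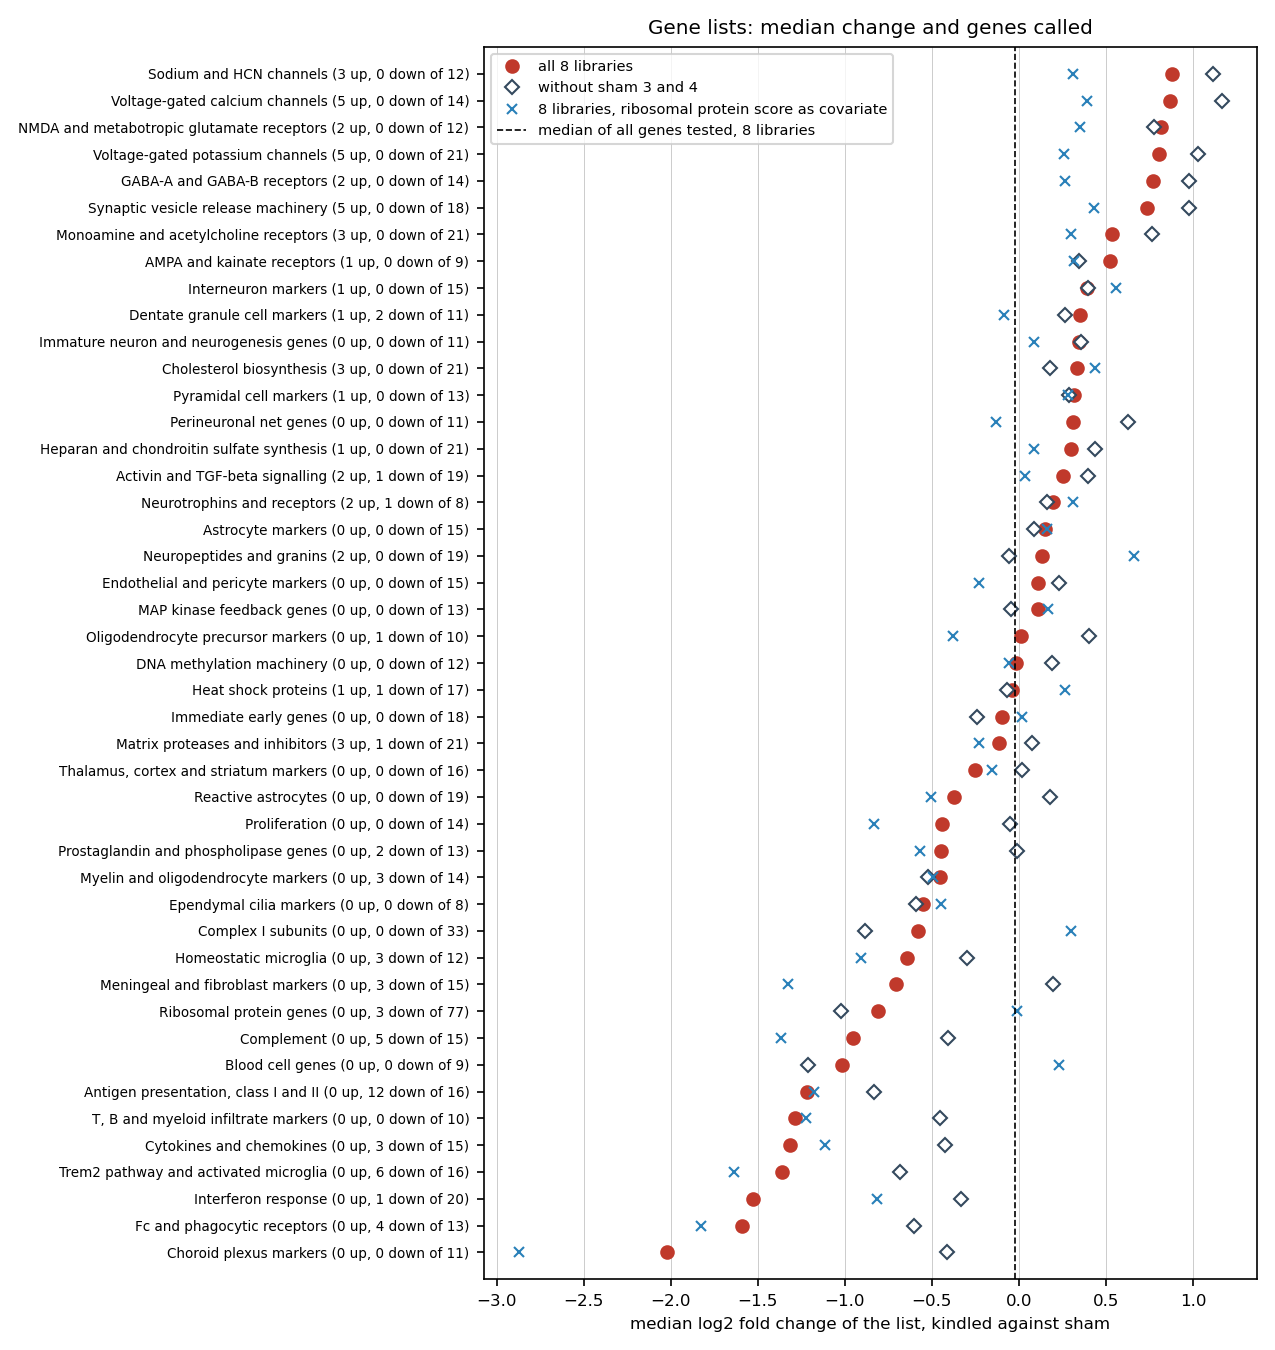
Median log2 fold change of each gene list with all 8 libraries (red circles), without sham 3 and 4 (open diamonds) and with ribosomal protein levels as a covariate (blue crosses), with the number called beside the number tested in each label; the dashed line is the median of all genes tested. Channel, receptor and vesicle lists lie at the top, with medians from 0.52 to 0.88, and choroid plexus (-2.02) and immune lists at the bottom, where leaving out sham 3 and 4 moved the medians towards 0.

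Immediate early genes are the transcription factors and effectors switched on within minutes of neuronal firing. Of 18 tested edgeR called 0, near the 5.85% of all genes, and the list median was -0.10. At an unadjusted p under 0.05 there were 3 higher and 3 lower, DESeq2 called 1 and 2, and limma-voom 7 and 5. Without sham 3 and 4 edgeR called 2 higher and 4 lower, against 15.9% and 18.3% of all genes, and the list median was -0.24. Fos was at 9.95, 7.62, 6.58 and 7.07 CPM in shams and 4.60, 5.77, 3.16 and 4.24 CPM in kindled rats. Every kindled library was below every sham, but the log2 fold change of -0.81 ± 0.22 did not pass (edgeR adjusted p = 0.0571), and it was -0.98 without sham 3 and 4 (edgeR adjusted p = 0.0230). Ier2 had a log2 fold change of -0.65 ± 0.19 (edgeR adjusted p = 0.0617), Arc of -0.23 ± 0.21 and Egr1 of 0.39 ± 0.18. Ptgs2, the inducible cyclooxygenase, had all kindled libraries (34.99 to 43.7 CPM) above all shams (2.76, 13.3, 10.8 and 19.01 CPM) with a log2 fold change of 1.78 ± 0.45 and missed the threshold narrowly (edgeR adjusted p = 0.0503).

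In cholesterol synthesis 3 of 21 genes rose and 0 fell, against 2.95% and 2.91% of all genes, with a median of 0.33. Without sham 3 and 4 there were 7 called higher and 4 lower, against 15.9% and 18.3% of all genes in that fit. The median was then 0.18, with 14 positive and 7 negative. Sc5d, a late enzyme of the pathway, was at 49.7, 57.2, 55.2 and 53.8 CPM in shams and 87.5, 83.9, 80.8 and 82.1 CPM in kindled rats. Both groups were tight and well apart, with a log2 fold change of 0.63 ± 0.10 (edgeR adjusted p = 0.0194). Hmgcs1, an early enzyme of the pathway, rose by 0.47 ± 0.11 (edgeR adjusted p = 0.0436). In heparan and chondroitin sulfate synthesis only Chst15 of 21 genes was called (0.98 ± 0.24), and of 11 perineuronal net genes edgeR called 0 (1 at an unadjusted p under 0.05, 1 by DESeq2, 5 by limma-voom).

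Lower in kindled hippocampus were genes of microglia and antigen presentation. In bulk tissue fewer cells of a type and less RNA per cell cannot be told apart. Of 16 genes of the Trem2 pathway and activated microglia, 0 had a positive log2 fold change, 6 fell (against 2.91% of all genes) and the median was -1.36. Without sham 3 and 4 the median was -0.68, with 1 positive and 8 called lower (against 18.3% of all genes in that fit). Tyrobp, the signalling adaptor of Trem2, was at 38.8, 47.7, 83.3 and 53.4 CPM in shams and 14.3, 14.6, 14.2 and 14.3 CPM in kindled rats. The kindled values were nearly identical and all far below the lowest sham, with a log2 fold change of -1.96 ± 0.22 (edgeR adjusted p = 0.0132) and -1.59 without sham 3 and 4 (edgeR adjusted p = 0.00712). Trem2 itself was at 33.0, 47.7, 29.6 and 60.8 CPM in shams and 12.7, 12.7, 13.4 and 11.3 CPM in kindled rats, and fell by a log2 fold change of -1.77 ± 0.23 (edgeR adjusted p = 0.0138). Ctsz, a lysosomal protease, was highest in sham 3 (186.8 CPM, against 65.1 to 111.0 CPM in the other shams) and at 29.7 to 33.6 CPM in kindled rats. Apoe, the lipid carrier of astrocytes and microglia, was at 10280, 8496, 8378 and 6583 CPM in shams and 4075, 3836, 4373 and 5122 CPM in kindled rats, a log2 fold change of -0.95 ± 0.17. The tetraspanins Cd9 and Cd63 fell by -0.90 ± 0.13 and -0.85 ± 0.18 on the log2 scale. Spp1, osteopontin, varied most between shams (3.36, 45.0, 364.4 and 239.5 CPM, against 7.09 to 11.2 CPM in kindled rats); sham 1 was below every kindled library and the gene was not called (edgeR adjusted p = 0.0541).

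Genes of resting microglia had smaller log2 fold changes. Of 12 tested, 3 fell and 0 were positive, with a median of -0.65 (-0.30 without sham 3 and 4). Aif1, the gene of the Iba1 antigen, was at 43.8, 43.3, 102.5 and 45.0 CPM in shams and 16.8, 21.02, 17.9 and 20.1 CPM in kindled rats (log2 fold change -1.63 ± 0.29, edgeR adjusted p = 0.0273). Sham 3 was the high one, and the other shams were still well above every kindled library. Tmem119 was at 53.9, 62.1, 57.3 and 40.4 CPM in shams and 29.1, 37.7, 30.5 and 34.9 CPM in kindled rats (-0.69 ± 0.16). The surveillance receptors P2ry12 (16.2 to 39.8 CPM in shams, 19.3 to 27.2 CPM in kindled rats) and Cx3cr1 (11.6 to 64.7 against 27.3 to 33.2 CPM) overlapped between groups and were not called. For both, sham 1 was lower than every kindled library.

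Complement fell through C1q, the initiator of the classical pathway that tags synapses. C1qa was at 224.9, 203.3, 432.7 and 291.2 CPM in shams and 114.1, 98.7, 114.8 and 122.0 CPM in kindled rats (log2 fold change -1.36 ± 0.23, edgeR adjusted p = 0.0239), and C1qb and C1qc, the other 2 chains, had log2 fold changes of -1.67 ± 0.28 and -1.74 ± 0.39. No kindled library reached the lowest sham for any of the 3 chains. With properdin (Cfp, -0.97 ± 0.16) and the C5a receptor C5ar1 (-1.35 ± 0.26), 5 of 15 complement genes fell and 0 were positive, with a median of -0.95. Without sham 3 and 4 there were 6 called lower (against 18.3% of all genes in that fit) and 6 positive, and the median was -0.41. Of 13 Fc and phagocytic receptors 4 fell, against 2.91% of all genes: Fcrl2 (-3.01 ± 0.59), Fcgr1a (-1.90 ± 0.44, and -1.24 without sham 3 with an edgeR adjusted p of 0.0498), the shared signalling chain Fcer1g (-1.59 ± 0.26) and Fcgr2a (-1.30 ± 0.23). Fcer1g was at 34.2, 46.0, 85.1 and 63.4 CPM in shams and 19.5, 20.9, 17.9 and 17.6 CPM in kindled rats. The median of the 13 receptors was -1.59, with 0 positive. Without sham 3 and 4 it was -0.60, with 3 positive and 5 called lower, against 18.3% of all genes in that fit.

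Antigen presentation was the list with the largest share of members called. Of 16 genes tested 12 fell (against 2.91% of all genes), 0 were positive and the median log2 fold change was -1.22. Without sham 3 and 4 the median was -0.83 and 12 were called lower, against 18.3% of all genes in that fit. With the ribosomal protein covariate the median was -1.18, but 1 of the 16 was called lower and 12 were lower at an unadjusted p under 0.05. In rats the major histocompatibility complex is named RT1. RT1-A2, a class I heavy chain, was at 73.8, 58.5, 126.4 and 95.5 CPM in shams and 28.4, 35.04, 32.6 and 33.9 CPM in kindled rats. Every kindled library was below every sham, with a log2 fold change of -1.45 ± 0.22 (edgeR adjusted p = 0.0200). Its light chain B2m was at 538.5, 559.2, 817.0 and 440.5 CPM in shams and 321.0, 359.2, 317.3 and 347.3 CPM in kindled rats (-0.81 ± 0.18). Class II also fell, RT1-Ba and RT1-Da by -1.32 ± 0.26 and -1.51 ± 0.36 on the log2 scale, and RT1-Db1 was at 5.68, 6.26, 8.64 and 6.31 CPM in shams and 2.79, 3.62, 2.96 and 3.39 CPM in kindled rats (-1.07 ± 0.19, edgeR adjusted p = 0.0261). The peptide exchange chains RT1-DMa (-1.02 ± 0.18) and RT1-DMb (-1.34 ± 0.30), the invariant chain Cd74 (-1.07 ± 0.22), the immunoproteasome subunits Psmb8 (-1.39 ± 0.30) and Psmb10 (-1.11 ± 0.27), RT1-CE10 and the peptide loading factor Tapbp also fell. Ciita, the master regulator of class II genes, was scarce at 0.404 to 2.16 CPM in shams and 0.276 to 0.522 CPM in kindled rats and was not called (edgeR adjusted p = 0.0708). RT1 genes are near copies of each other, and how the counting treated reads that fit several is not given in the sources used here, so levels of single RT1 genes are uncertain. Sham 3, with most T cell and interferon signal, was the highest sham for 11 of the 12 called genes, all but Cd74; the part of infiltrating cells was not tested.

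The promoters of the class II and class I genes that fell together are shown because such genes are known to share promoter elements. The Y box, bound by the factor NF-Y next to the sites that Ciita's partners use, was searched as CTGATTGG on both strands of RefSeq promoters of assembly GRCr8, which run from 250 bases before to 50 bases after each gene's start. It was found in 6 of the 15 list members with a promoter in that table, in 3.5% of all 33469 promoters of the same length and in 4.71% of the 12760 that belong to genes in the count table. Of the 12 genes that fell, RT1-A2, RT1-Ba, RT1-Da and RT1-Db1 hold it, and their sequences follow, 5′ to 3′ along each gene, with the Y box in capitals; in RT1-A2 it reads on the opposite strand, as CCAATCAG. The counts were made on another build, rn6. A match is a description of these letters, and no binding was measured here.
RT1-Ba (chr20:4576807-4577106, plus strand): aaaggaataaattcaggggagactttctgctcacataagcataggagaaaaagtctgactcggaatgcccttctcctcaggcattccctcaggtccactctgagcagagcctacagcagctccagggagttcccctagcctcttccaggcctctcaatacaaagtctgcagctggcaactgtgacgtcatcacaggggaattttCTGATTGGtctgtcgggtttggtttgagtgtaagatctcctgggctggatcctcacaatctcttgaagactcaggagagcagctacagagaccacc
RT1-Da (chr20:4515165-4515464, plus strand): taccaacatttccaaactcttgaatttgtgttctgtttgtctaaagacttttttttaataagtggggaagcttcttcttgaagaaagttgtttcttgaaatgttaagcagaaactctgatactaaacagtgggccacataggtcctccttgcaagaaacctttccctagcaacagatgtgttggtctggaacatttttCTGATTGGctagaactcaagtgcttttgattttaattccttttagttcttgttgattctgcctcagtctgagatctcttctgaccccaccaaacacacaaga
RT1-Db1 (chr20:4560113-4560412, minus strand): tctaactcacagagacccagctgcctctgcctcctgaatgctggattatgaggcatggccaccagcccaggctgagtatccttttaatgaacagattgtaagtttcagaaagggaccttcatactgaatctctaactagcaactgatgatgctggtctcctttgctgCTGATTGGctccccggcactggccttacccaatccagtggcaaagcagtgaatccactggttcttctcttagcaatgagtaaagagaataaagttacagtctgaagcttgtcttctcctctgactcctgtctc
RT1-A2 (chr20:4872621-4872920, plus strand): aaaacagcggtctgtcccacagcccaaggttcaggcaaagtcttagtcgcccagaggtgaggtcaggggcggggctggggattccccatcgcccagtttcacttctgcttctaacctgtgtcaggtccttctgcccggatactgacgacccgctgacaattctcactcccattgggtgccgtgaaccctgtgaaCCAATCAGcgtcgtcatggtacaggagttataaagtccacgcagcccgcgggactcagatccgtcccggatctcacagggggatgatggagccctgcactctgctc

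Cytokine and interferon genes were high in sham 3. Of 15 cytokines and chemokines tested 3 fell, the chemokines Ccl3 (-1.74 ± 0.38 on the log2 scale) and Cxcl16 (-1.71 ± 0.36) and the inflammasome product Il18 (-1.60 ± 0.34), and the list median went from -1.32 to -0.43 when sham 3 and 4 were left out. Of 20 interferon response genes edgeR called 1, near the 2.91% of all genes that fell. At an unadjusted p under 0.05 there were 15 lower, and DESeq2 called 6 lower and limma-voom 15. The 1 called by edgeR was Ifitm2, at 9.89, 8.58, 18.6 and 17.6 CPM in shams and 5.12, 5.46, 4.99 and 5.18 CPM in kindled rats (-1.40 ± 0.26, edgeR adjusted p = 0.0282). The list median went from -1.53 to -0.34 without sham 3 and 4. Irf7, the master regulator of interferon genes, was at 14.7, 16.4, 161.7 and 13.1 CPM in shams and 9.10, 18.3, 9.47 and 9.26 CPM in kindled rats. Only sham 3 was high, and Irf7 was not called. Checkpoint receptors of lymphocytes were low in all kindled libraries: Lag3 was at 1.38, 2.01, 3.05 and 3.36 CPM in shams and 0.398, 0.604, 0.467 and 0.424 CPM in kindled rats (-2.37 ± 0.33, edgeR adjusted p = 0.0158), and Pdcd1 at 0.673, 1.30, 1.42 and 4.51 CPM and 0.0613 to 0.448 CPM (-2.99 ± 0.69, and -2.18 without sham 4). The T cell gene Cd8a was at 0.202, 0.372, 37.3 and 5.09 CPM in shams and 0.220 to 0.337 CPM in kindled rats. Sham 1 and 2 were near the kindled range for Cd8a, and without sham 3 and 4 Lag3 still fell (-1.83, edgeR adjusted p = 0.00914).

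Of the marker lists for other cells, edgeR called 0 of 10 T, B and myeloid markers tested (6 lower at an unadjusted p under 0.05, 4 lower by DESeq2, 1 higher and 5 lower by limma-voom), 0 of 11 choroid plexus markers (8 lower, 1 lower, and 1 higher and 4 lower) and 0 of 9 blood genes (3 lower, 0, and 1 higher and 1 lower). Their list medians were -1.29, -2.02 and -1.02. Blood genes were highest in sham 1 and, among kindled libraries, in kindled 4, with sums of 2972 CPM and 1106 CPM against 714.7 to 1197 CPM in the other 6. The B cell gene Ms4a1, at 20 reads over the 8 libraries, and the T cell genes Cd3d and Cd3g, at 42 and 98 reads, were too low to test.

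The 12 largest called falls among genes above a mean log2 CPM of 1 ran from -3.41 to -2.09 and were H19, Fcrl2, Sncg, Kcnn4, F10, Plk5, Tspo, Bcl2a1, Igf2, Ceacam4, Cdkn1c and Apoc1. The genes H19, Igf2 and Cdkn1c among them are imprinted growth regulators. Cdkn1c, a cell cycle inhibitor, was at 23.2, 20.8, 30.0 and 41.7 CPM in shams and 4.75, 7.27, 6.31 and 8.65 CPM in kindled rats. Every kindled library held far less than any sham, a log2 fold change of -2.10 ± 0.26 (edgeR adjusted p = 0.0132). Igf2, a growth factor of meninges and choroid plexus, was at 40.6, 39.7, 38.2 and 180.9 CPM in shams and 14.7, 19.5, 15.4 and 12.9 CPM in kindled rats (-2.26 ± 0.53, and -1.34 without sham 4, the library rich in choroid plexus and collagen). H19, the non-coding neighbour of Igf2, was at 1.48, 4.43, 13.5 and 18.6 CPM in shams and 0.749 to 1.01 CPM in kindled rats (-3.41 ± 0.69, and -1.72 without sham 3 and 4). The meningeal gene Mgp, a calcification inhibitor, also fell in all kindled libraries (16.7 to 26.4 against 8.97 to 11.1 CPM, -1.07 ± 0.17, edgeR adjusted p = 0.0203). The meningeal and fibroblast list, which holds H19, Igf2 and Mgp, had a median of -0.71 with all shams and of 0.19 without sham 3 and 4.

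Plk5, a polo-like kinase listed with granule cell genes, was at 25.9, 10.2, 6.51 and 7.46 CPM in shams and 2.36, 2.54, 2.39 and 1.48 CPM in kindled rats. It fell by a log2 fold change of -2.51 ± 0.45 (edgeR adjusted p = 0.0282), or -1.89 without sham 1, the highest. C1ql2, a synaptic organiser made by granule cells, was at 132.7, 115.7, 85.8 and 62.6 CPM in shams and 53.5, 38.9, 53.4 and 24.1 CPM in kindled rats (-1.22 ± 0.30), while Lrrtm4, another granule cell synaptic gene, rose by 0.69 ± 0.14. So of 11 granule cell genes 2 fell and 1 rose. Nr3c2, the mineralocorticoid receptor, was the called one of 13 pyramidal cell genes (102.2 to 143.6 CPM in shams, 202.9 to 230.0 CPM in kindled rats, 0.80 ± 0.13, edgeR adjusted p = 0.0207). Gad1, which makes GABA, was the called one of 15 interneuron genes (130.9 to 154.1 against 192.1 to 216.7 CPM, 0.57 ± 0.11, edgeR adjusted p = 0.0282).

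Of the other large falls, Sncg, gamma-synuclein, was at 55.7, 8.71, 47.0 and 94.2 CPM in shams and 5.57 to 8.67 CPM in kindled rats, so sham 2 all but touched the kindled range. Tspo, the mitochondrial target of imaging ligands for reactive glia, was at 10.46, 12.95, 70.5 and 14.6 CPM in shams and 4.04 to 5.79 CPM in kindled rats. Its log2 fold change of -2.47 ± 0.61 was -1.37 without sham 3 (edgeR adjusted p = 0.0300), and that of F10, coagulation factor X, went from -2.55 ± 0.62 to -1.60 without sham 3 (edgeR adjusted p = 0.0772). Apoc1, an apolipoprotein, was at 42.9, 24.8, 30.7 and 24.7 CPM in shams and 9.68, 5.63, 8.62 and 5.04 CPM in kindled rats (-2.09 ± 0.27, edgeR adjusted p = 0.0138).

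Some falls were smaller but very even. Ftl1, the ferritin light chain that stores iron, was at 831.9, 740.2, 820.1 and 766.8 CPM in shams and 417.4, 374.7, 391.4 and 403.6 CPM in kindled rats. Within each group the 4 values were close, and the log2 fold change was -0.99 ± 0.10 (edgeR adjusted p = 0.0132). Npc2, which carries cholesterol out of lysosomes, was at 263.1 to 342.8 CPM in shams and 118.4 to 141.4 CPM in kindled rats (-1.18 ± 0.13), and Rnaset2, a lysosomal ribonuclease, at 96.0 to 187.1 and 39.7 to 42.9 CPM (-1.68 ± 0.20). Marcksl1, an actin regulator, was at 430.5 to 464.9 and 242.6 to 277.0 CPM (-0.83 ± 0.10), and Polr3k, a subunit of RNA polymerase III, at 86.2 to 110.0 and 50.2 to 51.4 CPM (-0.92 ± 0.11). These 5 genes were named after their values were seen, all with an edgeR adjusted p of 0.0132. Each was called in 5 of the 8 fits that leave out 1 library and also in the fit that takes ribosomal protein levels into account.

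Of 14 myelin genes tested 3 fell, 1 was positive and the median was -0.45 (-0.52 without sham 3 and 4). Cnp, the myelin phosphodiesterase, was at 1339, 1140, 855.5 and 1177 CPM in shams and 603.5, 684.7, 635.0 and 807.0 CPM in kindled rats (-0.72 ± 0.16, edgeR adjusted p = 0.0412). The tight junction gene Cldn11 and the aspartoacylase Aspa fell by -0.81 ± 0.19 and -0.78 ± 0.16 on the log2 scale. Mbp, myelin basic protein, at 8638 to 12300 CPM in shams and 5211 to 7820 CPM in kindled rats, separated the groups but did not pass (-0.69 ± 0.18, edgeR adjusted p = 0.0550).

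Among genes of the ribosome and respiration, all 77 ribosomal protein genes tested had a negative log2 fold change, with a median of -0.81. With all shams 3 of them were called, near the 2.91% of all genes that fell. Without sham 3 and 4 it was 75, against 18.3% of all genes in that fit. With all shams 75 were lower at an unadjusted p under 0.05, and DESeq2 called 68 lower and limma-voom 75. Rps12 was at 313.9, 230.3, 279.9 and 154.7 CPM in shams and 113.7, 116.5, 119.8 and 149.9 CPM in kindled rats (-0.97 ± 0.21, edgeR adjusted p = 0.0398). Sham 4 nearly met kindled 4. Of 33 complex I subunits edgeR called 0 (1 higher and 11 lower at an unadjusted p under 0.05, 1 and 3 by DESeq2, 1 and 32 by limma-voom), with a median of -0.58. Without sham 3 and 4, 31 were called lower, against 18.3% of all genes in that fit. The core subunit Ndufs1 went the other way, at 106.9 to 118.3 CPM in shams and 132.6 to 146.0 CPM in kindled rats. With the ribosomal protein covariate the complex I median took the opposite sign, at 0.30, and edgeR called 0 of the genes. In that fit 18 were higher and 0 lower at an unadjusted p under 0.05.

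Of 19 reactive astrocyte genes edgeR called 0 with all shams, near the 5.85% of all genes (1 lower at an unadjusted p under 0.05, 1 lower by DESeq2, 1 higher and 5 lower by limma-voom). Their median went from -0.38 to 0.18 without sham 3 and 4, where 3 were called higher and 1 lower (15.9% and 18.3% of all genes). Gfap, the intermediate filament that defines reactive astrocytes, was at 2568, 3954, 4918 and 3058 CPM in shams and 3029, 3186, 3024 and 4487 CPM in kindled rats. The groups overlapped fully (log2 fold change -0.08 ± 0.23, edgeR adjusted p = 0.821). Of 12 genes of the DNA methylation machinery edgeR also called 0, again near the 5.85% of all genes (1 higher and 2 lower at an unadjusted p under 0.05, 1 lower by DESeq2, 4 higher and 2 lower by limma-voom).

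The kindling change was then set against the kainic acid change in a fit of all 18 libraries, with the difference itself as the tested term; the 2 arms have separate shams. Of 13338 genes 507 were called (3.8%), and 87 of them had a more positive change in kindling (0.652%) and 420 a more negative one (3.15%). Without sham 3 and 4 that balance turned, with 398 of 651 called genes more positive in kindling and 253 more negative. Class II genes were among them. RT1-Ba had a log2 fold change of -1.33 ± 0.42 in kindling and of 3.05 ± 0.37 after kainic acid, a difference of -4.38 ± 0.57 (edgeR adjusted p = 0.00158). For RT1-Db1, Cd74, RT1-Da and Ciita the differences were -3.81, -4.13, -4.05 and -3.83 (edgeR adjusted p = 3.63e-04, 0.00158, 0.0124 and 0.00611). All 5 genes were higher after kainic acid and lower in kindling, also without sham 3 and 4, where the difference stayed called for each. The checkpoint genes Lag3 and Pdcd1 differed by -4.60 ± 0.71 and -5.18 ± 1.10, though Pdcd1 not without sham 3 and 4 (edgeR adjusted p = 0.00611 and 0.0190, and 0.0517 for Pdcd1 without them). The 5 class II genes and Lag3 were called in all 18 fits that leave out 1 library, and Pdcd1 in 14.

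Fos also went in opposite directions, with a log2 fold change of -0.82 ± 0.20 in kindling and 1.34 ± 0.18 after kainic acid (difference -2.16 ± 0.27, edgeR adjusted p = 0.00131). In the scale of that fit the 3 kainic acid Class V libraries held 14.2 to 21.9 CPM and their shams 5.89 to 9.20 CPM. Among microglial genes the differences were -2.40 ± 0.53 for Trem2, -2.39 ± 0.61 for Tyrobp, -2.10 ± 0.42 for Tgfb1 and -1.03 ± 0.22 for Tmem119 (edgeR adjusted p = 0.0216, 0.0375, 0.0154 and 0.0181). Without sham 3 and 4 that of Tyrobp was no longer called (edgeR adjusted p = 0.0746), and of the 18 fits that leave out 1 library it was called in 8. Gfap rose after kainic acid by 1.24 ± 0.24 and had a log2 fold change of -0.09 ± 0.26 in kindling; the difference of -1.33 ± 0.36 had an edgeR adjusted p of 0.0455, and 0.0728 without sham 3 and 4, and it was called in 4 of those 18 fits.

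In the other direction, Sc5d changed by 0.62 ± 0.09 in kindling and -0.08 ± 0.08 after kainic acid (difference 0.70 ± 0.12, edgeR adjusted p = 0.0114), and Hmgcs1 by 0.46 ± 0.10 and -0.30 ± 0.10 (0.76 ± 0.14, edgeR adjusted p = 0.0139). The heparan sulfate sulfotransferase Ndst4 differed by 1.92 ± 0.46, Met, the hepatocyte growth factor receptor, by 1.93 ± 0.53 and Bsn by 1.27 ± 0.32 (edgeR adjusted p = 0.0297, 0.0498 and 0.0386). Of the fits that leave out 1 library, 11, 5 and 8 of 18 called them. For Mmp9, Trh, Npy and Bdnf no difference between the models was called. Mmp9 changed by 3.00 ± 0.65 in kindling and 0.91 ± 0.56 after kainic acid (difference 2.09 ± 0.87, edgeR adjusted p = 0.185) and Trh by 2.86 ± 0.99 and 4.75 ± 0.87 (-1.89 ± 1.28, edgeR adjusted p = 0.419), so the standard errors of these differences were large.

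**Figure D4:**
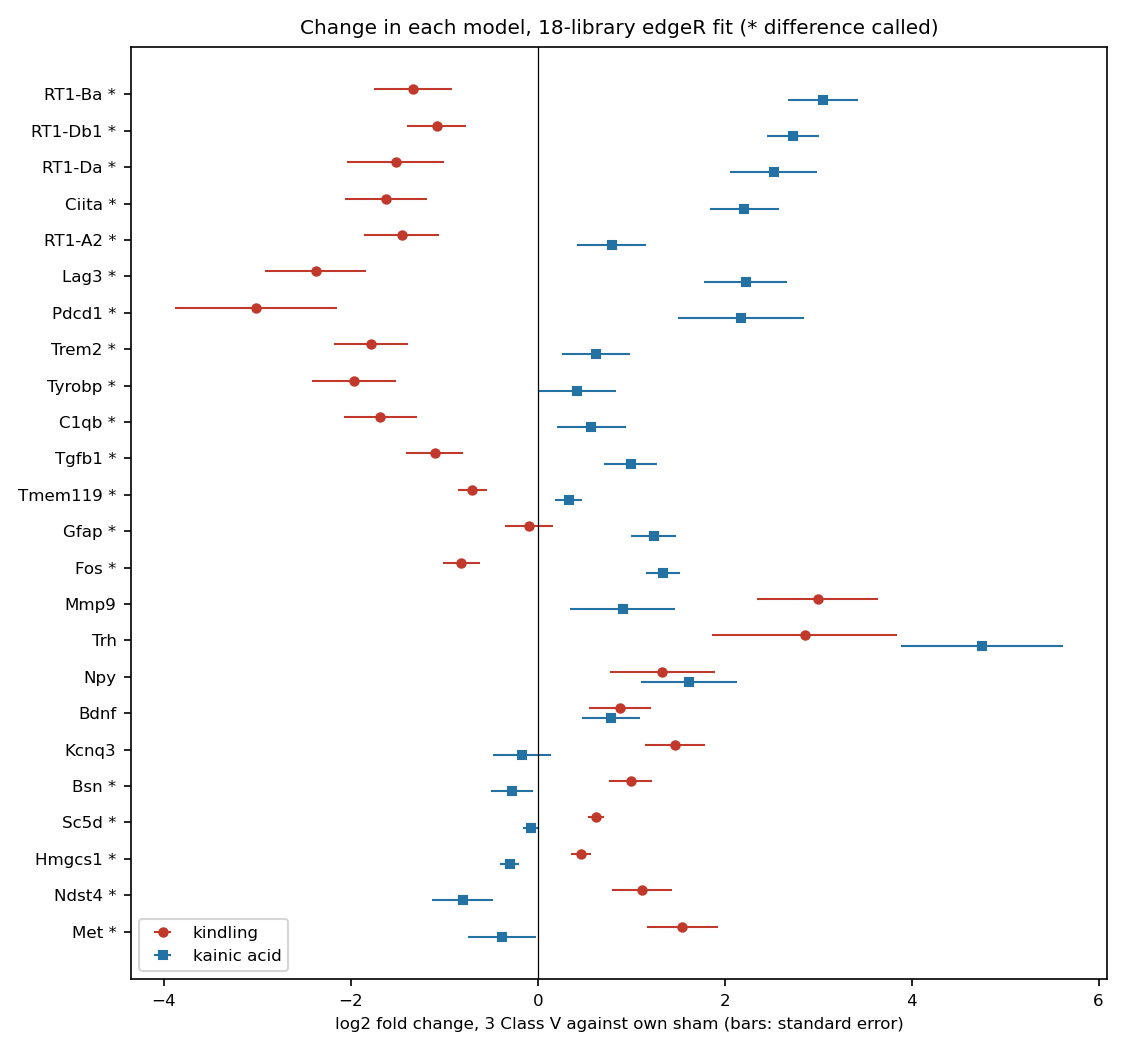
Log2 fold change of 24 genes in kindling (red circles) and after kainic acid (blue squares), each against its own shams in the 18-library fit, with standard errors as bars and an asterisk where the difference was called. RT1 genes, Lag3, Pdcd1 and Fos lie on opposite sides of 0, with RT1-Ba at -1.33 and 3.05, and Trh, Npy and Bdnf on the same side.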

How the data were processed

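RNA of left hippocampus was sequenced in 110-base reads, per the labels' protocols. The deposited values are read counts per gene on build rn6; FastQC, Trimmomatic, HISAT2, featureCounts and DESeq2 are named, per the submitters' processing notes. Versions, annotation, strand setting and the treatment of multiply mapping reads: not given in the sources used here. All 18 columns matched samples by title. Counts were tested with edgeR 4.0.16 (R 4.3.3): filterByExpr, TMM factors within the 8 libraries, robust quasi-likelihood F test and Benjamini-Hochberg adjustment over all genes tested. Errors after ± are SE from the F statistic. DESeq2 1.42.0 and limma 3.58.1 (voom with quality weights) were alternatives, with other scaling and filters, a replicate block, a ribosomal protein covariate and left-out libraries. On simulated counts of 12902 genes for the 8 libraries, 14.9%, 50.7% and 95.5% of genes changed 1.5, 2 and 4 fold were recovered, with 4 false calls. Each gene was drawn independently, without shifts shared across the genes of a library. Genes named were the 12 largest called rises and falls, the 8 largest called with and without sham 3 and 4, the members of smallest p and highest level of each of 45 gene lists, and the 5 largest differences each way from kainic acid; others are marked. Members and lists were chosen with earlier results of these data known. Results for a few genes are not reported here.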

Additional observations from a re-analysis of the deposited data

Results flagged for a closer look

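Of 272 gene and group pairs, 136 genes named in the text in 2 groups of 4, 27 had 1 library far from the other 3 by Dixon's test on log2 CPM, 9.93%. Chance alone marks about 1 in 20 groups. In the kindled group 8 of the 13 marks were kindled 4: low for Fcrl2 (1.272 CPM), Plk5 (1.484 CPM), Kcnd3 (56.29 CPM), Gria3 (206.4 CPM), Bdnf (53.89 CPM) and Gad1 (192.1 CPM), and high for Gfap (4487 CPM) and Ttr (21.23 CPM). The other 5 were kindled 2, low for Cacna1h (167.9 CPM), Ephb6 (136.5 CPM) and Sst (215.2 CPM) and high for Irf7 (18.34 CPM) and Marcksl1 (277.0 CPM).

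Among shams, sham 1 was low for Drd5 (0.4372 CPM), RT1-Ba (4.405 CPM), Ccl3 (0.4035 CPM) and Cx3cr1 (11.57 CPM) and high for Ier2 (24.41 CPM). Sham 3 was high for Aif1 (102.5 CPM), Il18 (8.069 CPM), Psmb8 (42.89 CPM) and Irf7 (161.7 CPM). Sham 4 was high for Igf2 (180.9 CPM), Col1a2 (225.5 CPM) and the neuronal genes Nalcn (114.5 CPM), Scn3a (44.41 CPM) and Cacna1b (101 CPM).

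For 40 of the genes named, the kindling change differed from the kainic acid change in the 18-library edgeR fit, more negative in kindling for 33 and more positive for 7. In log2 units, kindling minus kainic acid, the antigen presentation genes differed by -4.383 (RT1-Ba), -4.13 (Cd74), -4.045 (RT1-Da), -3.829 (Ciita), -3.813 (RT1-Db1), -2.248 (RT1-A2), -2.064 (Psmb8) and -1.852 (RT1-DMb). The lymphocyte receptors Pdcd1 and Lag3 differed by -5.184 and -4.602. Microglial and complement genes differed by -2.694 (Ctsz), -2.403 (Trem2), -2.386 (Tyrobp), -2.273 (C1qc), -2.257 (C1qb), -2.102 (Fcer1g), -2.099 (Tgfb1), -2.091 (C1qa), -1.869 (C5ar1), -1.064 (Apoe) and -1.03 (Tmem119). Cytokine and interferon genes differed by -2.459 (Cxcl16), -2.236 (Il18) and -1.517 (Ifitm2). The remaining negative differences were -3.889 (Kcnn4), -3.53 (F10), -2.159 (Fos), -2.112 (Rnaset2), -2.089 (Npc2), -1.647 (Mgp), -1.33 (Gfap), -1.006 (Polr3k) and -0.9863 (Ier2). The positive ones were 1.927 (Met), 1.919 (Ndst4), 1.773 (Zdhhc23), 1.265 (Bsn), 0.9088 (Nr3c2), 0.7623 (Hmgcs1) and 0.6974 (Sc5d). Without sham 3 and 4, 24 of the 40 differences were still called and 16 were not, with edgeR adjusted p from 0.0517 to 0.136. Those 16 were RT1-A2, RT1-DMb, Pdcd1, Tyrobp, C1qa, C1qb, C1qc, Fcer1g, C5ar1, Cxcl16, Il18, Ifitm2, Kcnn4, F10, Rnaset2 and Gfap. Of these, the difference was smaller by over 1.5 times for Kcnn4 (-2.40), F10 (-2.20), C1qc (-1.38) and Ifitm2 (-0.96).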

How the results depend on the processing

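The number of genes called between kindled rats and shams, 759, was 2493 with DESeq2, 7551 with limma-voom, 1332 in the fit of all 18 libraries, 461 without genes of ribosomal RNA repeats, 186 with the ribosomal protein covariate and 4458 without sham 3 and 4. Leaving out 1 library each gave 0 to 4493 calls. Other scaling or filters gave 620 to 730, though upper quartile factors split them 171 higher and 492 lower. Without sham 3 and 4, leaving out 1 further library gave 1165 to 7473 calls. For the difference between the models, 507 calls (87 higher and 420 lower) became 651 without sham 3 and 4 (398 higher and 253 lower), 1113 with DESeq2 and 56 to 897 with 1 library left out. With the replicate number as a block (replicate block), edgeR called 0 genes with all shams (1728 higher and 1164 lower at an unadjusted p under 0.05), 0 without sham 3 and 4 (1679 and 1540), and 173 for the difference between models, the last chosen after seeing the data. Same-numbered shams and kindled libraries had correlations of deviations of -0.103, -0.193, -0.0959 and -0.177, and no sham correlated best with its own number. So few correlations cannot decide whether the numbers mark pairs or batches, and this was not tested further. Of 122 called genes among those the naming rule gave or that were added later, 0 took the opposite sign under any alternative; 122 no longer passed with the block, 90 with the ribosomal protein covariate and 2 without sham 3 and 4. The cause of these shifts was not tested. In the simulated counts of 4 against 4 libraries, changes of 1.5 fold were mostly not recovered. Those counts hold no shifts shared across the genes of a library, so they do not give the power or error rate for these libraries.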

Other observations

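Further gene lists not described above had few or no calls with all 8 libraries. Of 13 prostaglandin and phospholipase genes tested 2 fell, of 17 heat shock genes 1 rose and 1 fell, and of 10 oligodendrocyte precursor genes 1 fell, the complement-like synaptic protein C1ql1 (48.4, 47.1, 41.2 and 39.4 CPM in shams, 27.8, 24.98, 27.6 and 33.3 CPM in kindled rats, log2 fold change -0.63, edgeR adjusted p = 0.0333). edgeR called 0 of 15 astrocyte markers (2 higher at an unadjusted p under 0.05, 0 by DESeq2, 4 higher and 7 lower by limma-voom), 0 of 13 MAP kinase feedback genes (1 lower, 0, and 5 higher and 1 lower), 0 of 15 endothelial and pericyte markers (2 and 2, 2 higher, and 4 and 4), 0 of 11 immature neuron genes (3 and 2, 2 and 1, and 4 and 2), 0 of 14 proliferation genes (5 lower, 5 lower, and 1 and 8), 0 of 8 ependymal cilia genes (5 lower, 4 lower, and 6 lower) and 0 of 16 markers of thalamus, cortex and striatum (2 and 4, 1 and 2, and 3 and 6). Hmox1, heme oxygenase, was at 12.6, 18.1, 27.9 and 28.8 CPM in shams and 8.79, 7.18, 9.41 and 9.31 CPM in kindled rats (log2 fold change -1.33), and was named after its values were seen. It was lower in every kindled library than in any sham.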
